A study of Homo sapiens with 2 samples.

Results

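The genes described here encode subunits of the Polycomb repressive complexes PRC1 and PRC2, together with the opposing deubiquitinase PR-DUB. They were taken by name from a list of 36 subunits, by a rule that uses no measured value, although earlier results of these data were known when the list was drawn up. Of these, 34 had an identifier among the 57736 genes of the count table, and 33 had at least 10 reads in both libraries together. EZHIP, an inhibitor of PRC2 made mainly in the germ line, had 0 reads in either library. EPOP and PCGF2 were not analysed here, because their identifiers in the annotation were not among those of the table.

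RNA-Seq was performed on A1847, an established human ovarian cancer cell line with high CARM1, in order to ask which genes that are silenced by the Polycomb enzyme EZH2 depend on CARM1. CARM1 is an arginine methyltransferase that modifies histones and the chromatin remodelling subunit BAF155. There was 1 library of parental cells, labelled CARM1 wild type, and 1 library of cells labelled CARM1 knockout (CARM1 KO), which came from a single clone made with pLentiCRISPR v2 and 1 guide RNA. Both were grown in RPMI medium with fetal bovine serum and no drug, and an empty vector in the parental cells is not described in the sources used here. With 1 library per condition there is no replicate check, no p-value is given, and an effect of CARM1 loss, features of the single clone and ordinary variation from library to library cannot be told apart. Whether the libraries are of the same line was not tested beyond the labels and the targeted gene.

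Polycomb proteins keep developmental genes silent in cells that do not use them. PRC2 methylates lysine 27 of histone H3 through EZH2 or its paralogue EZH1, and needs the partners EED and SUZ12 to do so. PRC1 ubiquitinates histone H2A through RING1 or RNF2, each paired with one PCGF protein, and the PCGF protein sets which other subunits join. CBX proteins of canonical PRC1 bind the methyl mark that PRC2 leaves, PHC proteins compact and cluster the marked chromatin, and RYBP or YAF2 take the place of CBX in variant PRC1. EZH2 is often abundant in cancers, including those of the ovary, and is a drug target.

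The parental library held 30741953 reads and the CARM1 KO library 32300391. CARM1 itself, the targeted gene, had 975 reads in parental cells against 380 in CARM1 KO cells, which was 2.65-fold lower (95% interval 2.35 to 2.99) and went with the labels. Every interval given here is an exact binomial interval that covers counting error only. The libraries differed widely beyond the Polycomb genes. Among the markers of epithelium and ovarian carcinoma, 8 of 10 were measured, and 7 of them were more than 1.5-fold higher in CARM1 KO cells. The other, the keratin KRT19, was lower, with 45 reads in parental cells and 0 in CARM1 KO cells. The 8 together had 43980 summed reads in parental cells against 151484 in CARM1 KO cells, of which KRT8 alone had 17600 and 70370. Of 5 fibroblast markers 4 were lower. The growth factor receptor PDGFRA had 14326 reads in parental cells against 2 in CARM1 KO cells. THY1 had 678 and 4, LUM 61 and 1 and DCN 24 and 0. The other, the collagen COL1A1, was 3.97-fold higher (3.27 to 4.84), with 131 and 537 reads. The summed reads of the 5 were 15220 in parental cells against 544 in CARM1 KO cells, and most of the latter came from COL1A1. The ovarian marker MUC16 had 0 reads in parental cells and 1 read in CARM1 KO cells, and WT1 had 8 and 1. The leukocyte marker CD3E and the endothelial marker CDH5 were at 0 reads in each library, while PTPRC had 6 and 0, LYZ 17 and 14 and VWF 1 and 2. What part these differences had in the values of the Polycomb subunits was not tested. Fewer cells of a kind and less RNA per cell cannot be told apart in such libraries.

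The stretches before the annotated starts of EZH2, the enzyme of PRC2, and of the PRC1 subunits BMI1 and CBX6, which were lower past 3-fold, show the kind of promoter these genes have. Sequences are from RefSeq windows of 250 bases that were matched exactly to GRCh37, written 5′ to 3′ on the strand of the gene. Bases inside an exon of another transcript, 30 for EZH2 and 33 for CBX6, were left out at the 3′ end. Capitals mark matches, on either strand, to any of the 6 motifs searched.
EZH2, chr7:148581414-148581633, minus strand: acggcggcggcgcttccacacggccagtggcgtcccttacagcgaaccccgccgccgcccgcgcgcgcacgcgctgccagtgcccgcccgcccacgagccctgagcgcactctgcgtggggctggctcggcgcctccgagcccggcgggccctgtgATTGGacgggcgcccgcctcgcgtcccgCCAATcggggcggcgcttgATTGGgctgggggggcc
BMI1, chr10:22609778-22610027, plus strand: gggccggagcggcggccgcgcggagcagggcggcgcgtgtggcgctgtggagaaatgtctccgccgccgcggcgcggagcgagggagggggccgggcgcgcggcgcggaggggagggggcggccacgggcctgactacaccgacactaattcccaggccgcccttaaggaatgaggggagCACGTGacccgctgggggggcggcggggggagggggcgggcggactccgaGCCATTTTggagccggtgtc
CBX6, chr22:39268255-39268471, minus strand: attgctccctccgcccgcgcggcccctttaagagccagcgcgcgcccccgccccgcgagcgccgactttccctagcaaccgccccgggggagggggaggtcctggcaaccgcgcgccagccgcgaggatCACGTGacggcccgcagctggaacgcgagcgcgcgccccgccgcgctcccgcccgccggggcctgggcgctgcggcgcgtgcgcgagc
The capitals in EZH2 are 3 matches to CCAAT, the CCAAT box, of which those written ATTGG are on the other strand. In BMI1 they are CACGTG, an E-box bound by MYC and MAX, and a match to GCCATNTT, the letters bound by YY1. In CBX6 the capitals are 1 E-box. No matches overlapped one another. All of the stretches are rich in G and C, at 78.6% in EZH2, 76.8% in BMI1 and 79.7% in CBX6, against a median of 58.0% over all RefSeq windows, and they hold 35, 35 and 39 CpG dinucleotides. PCGF5 was the member that was higher past 3-fold. Its window held no match and lies wholly within an exon of another transcript, so it is not printed. CBX2 and CBX8 had no window.

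Over all 35116 windows of 250 bases, CCAAT was found in 32.0%, CACGTG in 6.34% and GCCATNTT in 3.86%. Windows were found for 32 of the 36 genes, and 13 genes had CCAAT, 7 had CACGTG and 4 had GCCATNTT in at least 1 of their windows. The E2F letters GCGGGAA and GCGCCAA were in the windows of 4 and 3 genes, beside 5.52% and 2.56% of all windows, and the palindromic NRF1 site was in those of 1 gene, beside 1.03%. Genes with several starts have several windows, so the share of genes is not on the same footing as the share of windows. A match of letters is a description and does not show that a factor is bound.

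Transcripts of PRC2 and of PRC1 lay apart in the comparison of CARM1 KO with parental cells. Of the 11 PRC2 members measured, 5 were more than 1.5-fold higher in CARM1 KO cells (EZH1, EZH2, EED, PHF1 and JARID2) and 0 were more than 1.5-fold lower. RBBP4, at 1.498-fold lower, and PHF1, at 1.53-fold higher, lay so close to the limit that they changed sides under other scalings. Of the 19 PRC1 members measured, only PCGF5 was more than 1.5-fold higher, and 10 were more than 1.5-fold lower (RNF2, PCGF1, BMI1, CBX2, CBX6, CBX8, PHC1, SCMH1, SCML2 and KDM2B). The median log2 fold change was 0.29 for the PRC2 members and -0.82 for the PRC1 members, against -0.04 over all 18563 genes with at least 10 reads and 0.02 over the 14140 protein-coding genes among them. These shares were 45.5% higher for PRC2 and 52.6% lower for PRC1, and the difference between the complexes was not tested.

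Differences of this size were common in these libraries. Past 1.5-fold, 28.3% of all genes with at least 10 reads were higher and 29.2% were lower in CARM1 KO cells, and among protein-coding genes the shares were 28.6% and 25.6%. As a set of 33 genes, the Polycomb members were near or below those shares, with 7 higher (21.2%) and 10 lower (30.3%), and their median log2 fold change was -0.03. Past 3-fold, the threshold used in the study, 12.7% of all genes were higher and 11.8% were lower, and 12.6% and 9.26% of protein-coding genes. PCGF5 was the only member higher past 3-fold (3.03%), and BMI1, CBX2, CBX6 and CBX8 were lower (12.1%). The members were deeply counted, with at least 46 reads in each library. Of the 9699 genes with at least 500 reads, a minimum chosen after the values were seen, 22.5% were higher and 21.9% lower past 1.5-fold, and 7.07% and 5.37% past 3-fold, and 32 members reached that minimum.

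**Figure D1:**
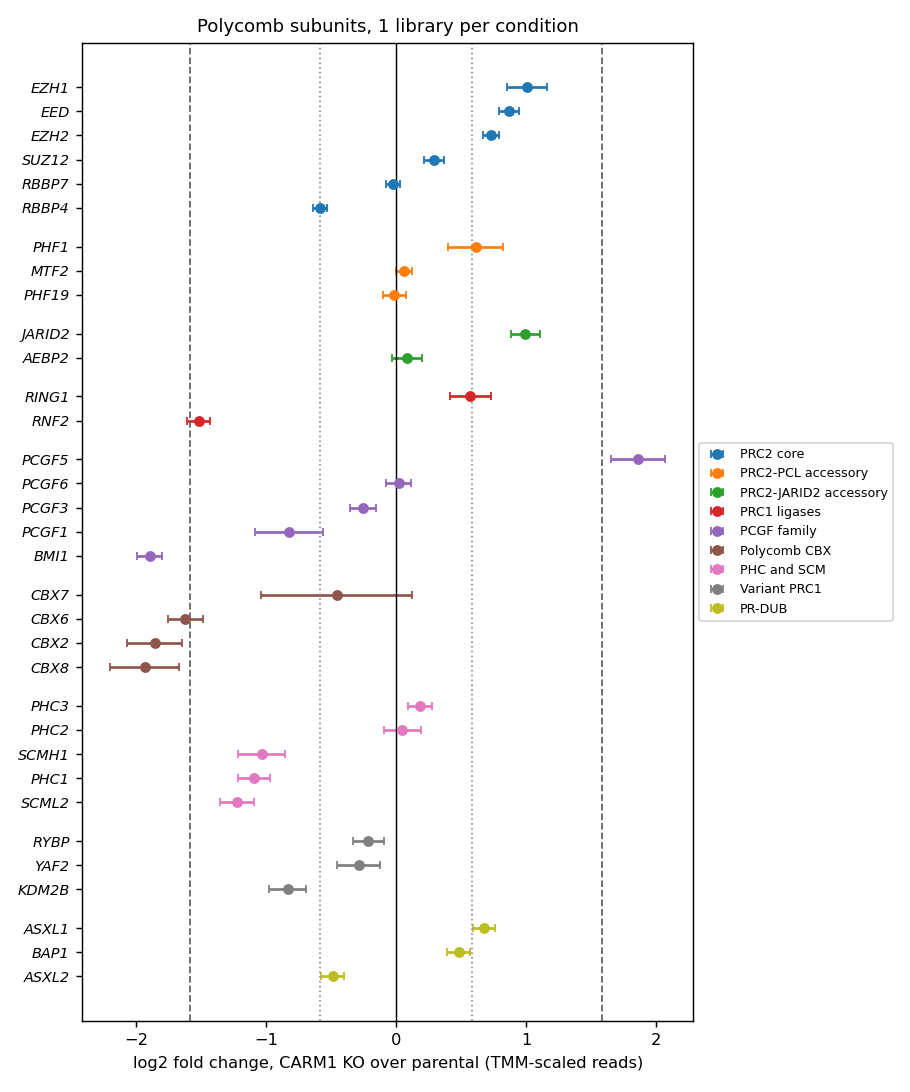
Log2 fold change of each of the 33 measured Polycomb subunits, CARM1 KO over parental, from 1 library per condition. Points are TMM-scaled fold changes, bars are 95% counting intervals, dotted lines mark 1.5-fold and dashed lines 3-fold, and colours give the role. PCGF5 lies beyond the right dashed line at 1.86, and BMI1, CBX2, CBX6 and CBX8 lie beyond the left one.

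Of the 6 genes of the PRC2 core, the enzymes and EED were higher past 1.5-fold in CARM1 KO cells. Positions are those of the annotation on GRCh37. EZH2 (chr7:148504349-148581413) had 3141 reads in parental cells against 5380 in CARM1 KO cells, which was 1.66-fold higher (95% interval 1.59 to 1.73). EZH1 (chr17:40852293-40897067), the paralogue that is weaker as an enzyme and is used more in cells that no longer divide, had 499 and 1036 reads, 2.01-fold higher (1.81 to 2.24). EED (chr11:85912254-85989855), which binds the finished methyl mark and stimulates the enzyme, had 2178 and 4114 reads, 1.83-fold higher (1.74 to 1.93). So transcripts of both methyltransferases and of the mark reader were higher, each with an interval wholly past 1.5-fold. These are RNA values from 1 library per condition. By immunoblot of parental and CARM1 KO A1847 cells, the study reported unaltered EZH2 and unchanged levels of the methyl mark. SUZ12 (chr17:30264026-30328057), the scaffold of the complex, differed less, with 2487 and 3143 reads, 1.22-fold higher (1.16 to 1.29).

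The histone chaperones RBBP4 and RBBP7 belong to PRC2 and to several other chromatin complexes. RBBP4 (chr1:33116743-33151812) had 6817 reads in parental cells against 4698 in CARM1 KO cells, 1.498-fold lower (1.44 to 1.56), just inside the 1.5-fold limit. RBBP7 had 5651 and 5734 reads, a ratio of 0.983 after scaling (0.947 to 1.02). The ratio of RBBP7 to RBBP4 reads was therefore 1.47-fold higher in CARM1 KO cells (1.40 to 1.55). Such a ratio of paralogues is taken within each library and does not depend on the scaling between libraries.

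Accessory subunits decide where PRC2 goes. JARID2 (chr6:15246300-15522273), which with AEBP2 defines the PRC2.2 form and helps PRC2 to reach chromatin marked by PRC1, had 966 reads in parental cells against 1988 in CARM1 KO cells, 1.99-fold higher (1.84 to 2.15). AEBP2 had 1122 and 1229 reads, with a ratio of 1.06 (0.977 to 1.15), so JARID2 was 1.88-fold higher relative to AEBP2 (1.68 to 2.10). The Polycomb-like proteins of the PRC2.1 form, which bind DNA rich in CpG, were led by MTF2. MTF2 had 4366 and 4709 reads, a ratio of 1.04 (1.00 to 1.09), and PHF19 had 1985 and 2032 reads, a ratio of 0.991 (0.931 to 1.06). Neither differed by more than 1.1-fold. PHF1 was the least abundant of them and had 308 and 486 reads, 1.53-fold higher, with an interval from 1.32 to 1.77 that takes in 1.5-fold.

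RNF2 and RING1, the alternative ubiquitin ligases of PRC1, went opposite ways. RNF2 (chr1:185014658-185071735) had 3806 reads in parental cells against 1370 in CARM1 KO cells, 2.87-fold lower (2.70 to 3.05), which was just short of 3-fold. RING1 (chr6:33176277-33180499) had 549 and 842 reads, 1.49-fold higher (1.33 to 1.66), just short of 1.5-fold. The reads of RING1 relative to RNF2 were 4.26-fold higher in CARM1 KO cells (3.76 to 4.83). In level per length (RPKM, reads per kilobase of exon relative to the scaled library size), RNF2 went from 31.4 to 11.0 and RING1 from 9.77 to 14.5. RNF2 was the more abundant ligase transcript in parental cells, and RING1 in CARM1 KO cells.

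The PCGF family, whose members each define a different PRC1, held both the highest and one of the lowest fold changes. PCGF5 (chr10:92922769-93044094), of a variant PRC1 without CBX, had 245 reads in parental cells against 920 in CARM1 KO cells, 3.64-fold higher (3.15 to 4.20). BMI1 (chr10:22610028-22620413), also called PCGF4 and a subunit of canonical PRC1 known for repressing the CDKN2A locus, had 3977 and 1102 reads, 3.73-fold lower (3.49 to 3.99). PCGF5 was at the bottom and BMI1 at the top of the family in parental cells, so these opposite differences brought them closer. In level per length BMI1 was 30.7 times PCGF5 in parental cells and 2.27 times in CARM1 KO cells. The ratio of their fold changes was 13.5 (11.6 to 15.9).

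The other members of the family differed less. PCGF1, of the variant PRC1 that KDM2B brings to CpG islands, had 331 reads in parental cells against 193 in CARM1 KO cells, 1.77-fold lower (1.48 to 2.13). PCGF3, which shares its kind of PRC1 with PCGF5, had 1744 and 1507 reads, 1.20-fold lower (1.11 to 1.28). PCGF6, of the complex with MGA and E2F6 that represses germ line genes, had 1722 and 1804 reads, a ratio of 1.01 (0.949 to 1.08). Past 1.5-fold, 1 member of the family was higher and 2 were lower, and 2 lay between.

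Of the chromodomain subunits measured, 3 of 4 were lower past 3-fold. CBX8 (chr17:77765931-77775482) had 554 reads in parental cells against 150 in CARM1 KO cells, 3.81-fold lower (3.18 to 4.60). CBX2 (chr17:77751947-77761782), the subunit that can itself compact nucleosomes, had 843 and 240 reads, 3.63-fold lower (3.14 to 4.20). CBX6 (chr22:39257427-39268254) had 1803 and 605 reads, 3.08-fold lower, with an interval from 2.81 to 3.38 that takes in 3-fold. CBX2 and CBX8 lie next to each other on chromosome 17, and their fold changes could not be separated by counting (ratio 1.05, 0.830 to 1.33). CBX7 lies near CBX6 on chromosome 22 and was the lowest of all members that were counted, with 61 and 46 reads. Its fold change of 1.37-fold lower had an interval from 0.919 to 2.05 that takes in no difference, but relative to CBX2 it was 2.65-fold higher (1.72 to 4.06). The median log2 fold change of the 4 genes was -1.74.

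PHC proteins polymerise through their SAM domains, and SCMH1 and SCML2 join PRC1 through the same kind of domain. PHC1 (chr12:9066492-9094063) had 1707 reads in parental cells against 827 in CARM1 KO cells, 2.13-fold lower (1.96 to 2.32). SCML2 (chrX:18257433-18372808) had 1616 and 715 reads, 2.33-fold lower (2.14 to 2.55), and SCMH1 (chr1:41492874-41707978) had 767 and 387 reads, 2.05-fold lower (1.81 to 2.32). PHC2 with 785 and 838 reads was at a ratio of 1.03 (0.937 to 1.14), and PHC3 with 1857 and 2179 reads was 1.14-fold higher (1.07 to 1.21). Thus 3 of these 5 genes were lower past 1.5-fold and PHC2 and PHC3 were not. Relative to PHC1, PHC2 was 2.20-fold higher (1.93 to 2.51) and PHC3 2.42-fold higher (2.18 to 2.69).

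Among the subunits of variant PRC1, KDM2B, the demethylase with a zinc finger for unmethylated CpG, had 1149 reads in parental cells against 665 in CARM1 KO cells, 1.78-fold lower (1.62 to 1.97). The paralogues RYBP and YAF2, which stimulate the ligase, differed little. RYBP had 1266 and 1128 reads, 1.16-fold lower (1.07 to 1.26), and YAF2 had 644 and 545 reads, 1.22-fold lower (1.09 to 1.37). Their fold changes could not be separated (ratio 0.950, 0.824 to 1.10).

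PR-DUB removes the ubiquitin that PRC1 adds. Its catalytic subunit BAP1, a tumour suppressor, had 1729 reads in parental cells against 2493 in CARM1 KO cells, 1.40-fold higher (1.31 to 1.49). ASXL1, the cofactor that activates BAP1, had 1806 and 2977 reads, 1.60-fold higher (1.51 to 1.69), and ASXL2 had 2416 and 1779 reads, 1.40-fold lower (1.32 to 1.49). The paralogues thus went opposite ways, with ASXL1 2.24-fold higher relative to ASXL2 (2.06 to 2.44).

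**Figure D2:**
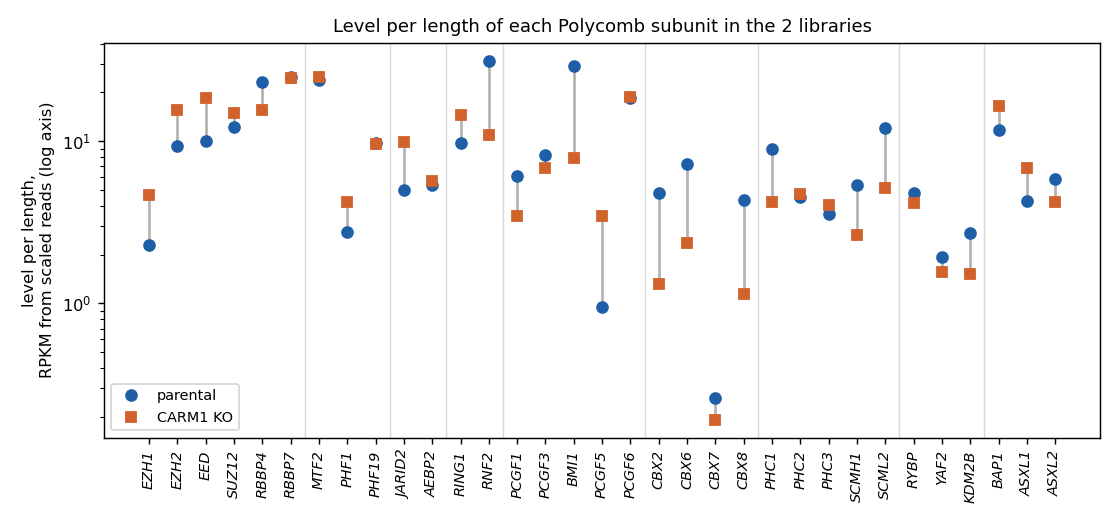
Level of each measured subunit in the parental (circles) and CARM1 KO (squares) libraries, as RPKM per union of exons from scaled reads on a log axis, with vertical lines between roles. By this length the highest levels in parental cells were those of RNF2 (31.4) and BMI1 (29.2), whereas RBBP7 was highest per longest transcript (45.2), and the lowest was that of CBX7 (0.263).

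Per kilobase of all annotated exons, RNF2 at 31.4 and BMI1 at 29.2 had the highest levels of parental cells, followed by RBBP7 at 24.8, MTF2 at 23.8 and RBBP4 at 23.2. Per longest transcript the order was another, with RBBP7 at 45.2 before BMI1 at 36.2, with RNF2 between BMI1 and MTF2 at 34.6. In CARM1 KO cells, per kilobase of all exons, MTF2 at 24.9 and RBBP7 at 24.4 came first, then PCGF6 at 18.7, EED at 18.4, BAP1 at 16.5 and EZH2 at 15.6. RNF2 and BMI1 lay below these in CARM1 KO cells, at 11.0 and 7.83. Per longest transcript EED at 46.4 came first in CARM1 KO cells, then RBBP7 at 44.4, EZH2 at 37.3 and MTF2 at 36.1. Within the PRC2 core of parental cells the level of EZH2 was 9.40, of EED 10.0 and of SUZ12 12.2, and in CARM1 KO cells SUZ12 was at 15.0. The order of EZH2 and SUZ12 also depends on the length that is used, since per longest transcript they were at 22.5 and 17.8 in parental cells. Ranks of different genes by level therefore hold only for the length named.

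The make-up of each family can be read as each gene's percent of the summed level per length. EZH2 made up 80.3% of the EZH1 and EZH2 level in parental and 77.1% in CARM1 KO cells, so EZH2 stayed the major enzyme while EZH1 was 1.21-fold higher relative to it (1.08 to 1.36). RNF2 went from 76.3% to 43.0% of the ligase level. BMI1 went from 46.4% to 19.4% of the PCGF level, PCGF6 from 29.4% to 46.5% and PCGF5 from 1.51% to 8.57%, so PCGF6 took the first place. The summed PCGF level was 62.9 in parental and 40.3 in CARM1 KO cells. PHC1 went from 52.6% to 32.5% of the PHC level, and PHC2, at 36.4%, was then the first. The CBX family kept its order, with CBX6 at 43.7% and 47.2%, CBX2 at 28.8% and 26.4%, CBX8 at 26.0% and 22.7% and CBX7 at 1.58% and 3.84%, but its sum was 16.7 in parental and 5.01 in CARM1 KO cells. Shares per longest transcript put the same gene first in each of these families. PCGF2 is missing from the PCGF sum, and the CBX shares are of the 4 genes described here and not of every Polycomb CBX protein.

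**Figure D3:**
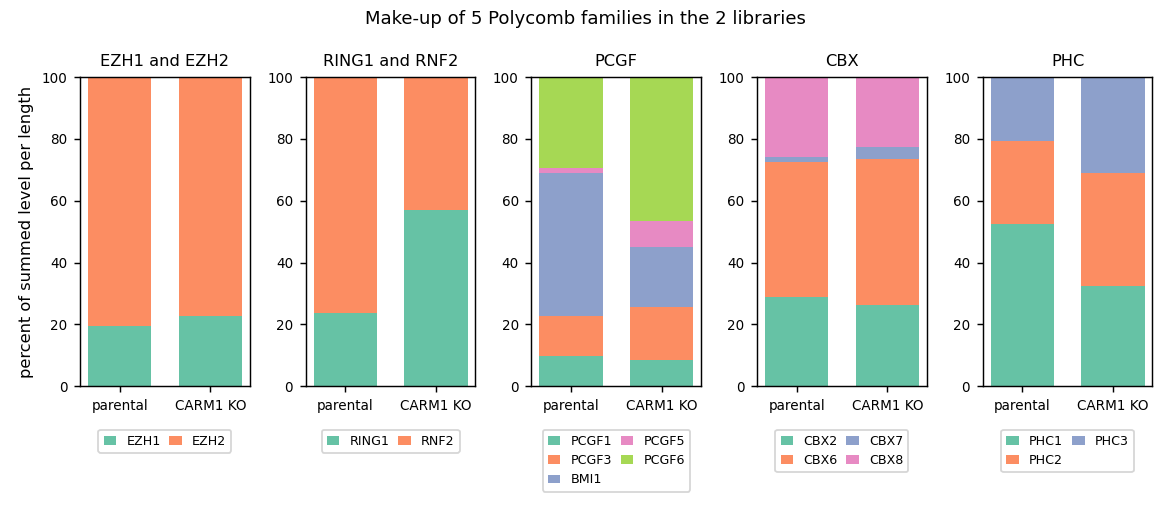
Percent of the summed level per length held by each member of 5 Polycomb families in parental and CARM1 KO cells, with 1 library per bar. Colours stand for genes within a panel. RNF2 gives way to RING1, BMI1 to PCGF6 and PHC1 to PHC2 as the largest part, while EZH2 and CBX6 are the largest part of their families in each library.

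The partners of PRC1 and related chromatin proteins, a list of 40 genes, were also examined. Of 39 measured, 4 were higher (SFMBT1, SFMBT2, YY2 and, named after its value was seen, KDM1B) and 12 were lower past 1.5-fold, and the median log2 fold change was -0.32. These are shares of 10.3% and 30.8%, beside 28.3% and 29.2% of all genes, so the share of lower partners was near that of all genes. Those past 3-fold were SFMBT2, BCORL1 and AUTS2. SFMBT2, an MBT domain protein of a YY1 complex, had 155 reads in parental cells against 683 in CARM1 KO cells, 4.27-fold higher (3.58 to 5.11), and its paralogue SFMBT1 had 1087 and 2861 reads, 2.55-fold higher (2.38 to 2.74). BCORL1, a partner of PCGF1, had 191 and 58 reads, 3.40-fold lower (2.52 to 4.65). AUTS2, a subunit of PRC1 with PCGF3 or PCGF5 that is best known from neurons, had 39 reads in parental cells against 0 in CARM1 KO cells, 13.4-fold lower when the latter is taken as 3 reads, and the exact 95% interval of the difference begins at 10.4-fold. So PCGF5 was higher and AUTS2 lower. YY2, a retrocopy-derived relative of YY1, had 28 and 65 reads, 2.25-fold higher (1.42 to 3.64). The other genes among the 3 largest differences in the lower direction with at least 50 reads were L3MBTL3 with 466 and 190 reads, 2.53-fold lower (2.14 to 3.01), and the heterochromatin protein CBX5 with 10837 and 4396 reads, 2.55-fold lower (2.46 to 2.64).

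Enzymes that act against Polycomb marks were set beside the subunits. Of 14 such genes, which remove the methyl or ubiquitin mark or lay down marks of active genes, 7 were lower and 1, MYSM1, was higher past 1.5-fold, with a median log2 fold change of -0.45. Beside these counts, 29.2% of all genes were lower and 28.3% higher, and no test of the list was made. KDM6A, a demethylase of the PRC2 mark that was picked out after its values were seen, had 2756 reads in parental cells against 1054 in CARM1 KO cells, 2.70-fold lower (2.51 to 2.90). Its paralogue KDM6B, picked in the same way, had 17 reads and 1 read, a ratio of 17.6 with an interval from 2.75 to 734. The members of this list with the most reads were USP22, NSD1, NSD2 and ASH1L. USP22 had 8141 and 6781 reads, 1.24-fold lower (1.20 to 1.28), and ASH1L had 5337 and 3658 reads, 1.51-fold lower (1.44 to 1.57). The lower genes KMT2A, KMT2B, KMT2D and ASH1L were at most 1.53-fold lower, close to the limit. NSD1 had 6711 and 8720 reads, 1.26-fold higher (1.22 to 1.30), and NSD2 had 4944 and 6676 reads, 1.31-fold higher (1.26 to 1.36).

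EZH2 and several other Polycomb genes are known to be expressed with the cell cycle, so proliferation genes were set beside them. Of 20 such genes 1, E2F1, was higher (5.0%) and 2, CCNB1 and PLK1, were lower (10.0%) past 1.5-fold, beside 28.3% and 29.2% of all genes. By any amount, 9 were higher and 11 were lower, and the median log2 fold change of the list was -0.05. TOP2A, with the most reads, had 26623 in parental and 29532 in CARM1 KO cells, 1.07-fold higher (1.06 to 1.09). E2F1, a regulator of EZH2 transcription that like CCNB1 and PLK1 was picked out after its values were seen, had 342 and 587 reads, 1.66-fold higher (1.45 to 1.90). Any link between these genes and the higher values of EZH1, EZH2 and EED was not tested.

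Position on the chromosome was examined because genes near each other may differ together. For each member the median log2 fold change was taken over the 5 nearest protein-coding genes with at least 10 reads on either side, and these medians ran from -0.94 to 2.04. Of the 17 members past 1.5-fold, 8 had neighbours whose median had the same sign, and 4, EED, JARID2, PHF1 and RNF2, had neighbours with a median past 1.5-fold the same way. Around JARID2 (chr6:13615567-17131609) 9 of 10 neighbours were higher past 1.5-fold with a median of 2.04, so JARID2 at 0.99 lay below them. Around EED (chr11:85359011-86666437) 8 of 10 were higher with a median of 1.01, close to the 0.87 of EED. RNF2 at -1.52 lay in a segment (chr1:183898988-186344825) where 6 of 10 neighbours were lower, with a median of -0.94.

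Other members went against their surroundings. PCGF5 at 1.86 lay among genes with a median of -0.63 (chr10:91339254-93791194), and EZH2 at 0.73 among genes with a median of -0.48. SCML2 at -1.22 had neighbours with a median of 1.53, of which 6 of 10 were higher and 0 lower past 1.5-fold. For BMI1 the neighbour median was -0.36, for CBX2 -0.13, for CBX8 -0.28, for CBX6 0.40 and for PHC1 0.60, so these lower genes lay well below the genes around them. CBX2 and CBX8 are among each other's neighbours. In all, 10 of the 17 lay more than 1 log2 unit from their neighbours. DNA copy number was not measured in the libraries, and its part in the values was not tested.

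**Figure D4:**
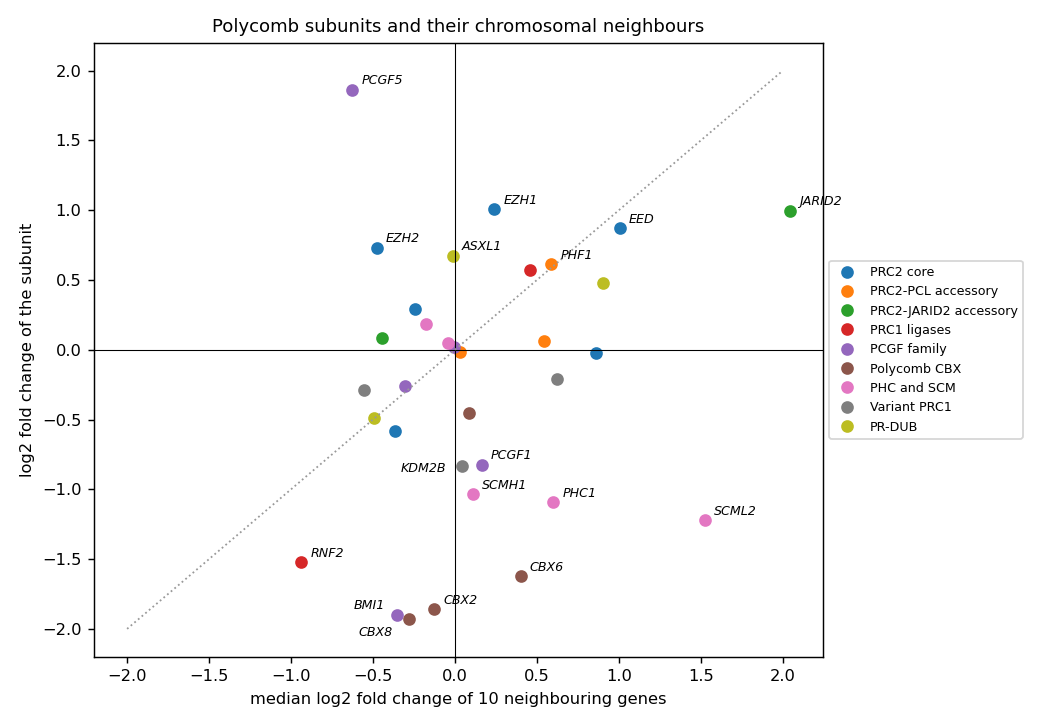
Log2 fold change of each measured subunit against the median log2 fold change of its 10 nearest expressed protein-coding genes, CARM1 KO over parental. Colours give the role, names mark the 17 members past 1.5-fold, and the dotted line marks equal values. EED, PHF1 and RNF2 lie nearer the line than PCGF5, SCML2, CBX2, CBX6, CBX8 and BMI1.

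Some members share sequence with other genes, which RSEM divides reads between. In all, 9 members had 11 pseudogenes or genes with shared exon bases that had at least 10 reads. The readthrough gene COMMD3-BMI1, which shares 1000 exon bases with BMI1 on the same strand, had 497 reads in parental cells against 345 in CARM1 KO cells, and with its reads added BMI1 was 3.19-fold lower (3.01 to 3.39). The pseudogene SUZ12P1 had 451 and 361 reads, 14.4% of the SUZ12 reads, and the sum was 1.15-fold higher (1.10 to 1.21). PHC1P1 had 400 and 245 reads, and with it PHC1 was 2.03-fold lower (1.88 to 2.19). These sums were formed after the values were seen, and each kept the direction of its member.

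The other overlaps were with genes on the opposite strand. Whether strand was used in counting is not given in the sources used here, so reads in these exons could come from either gene. SYNC shares 2160 exon bases with RBBP4 and had 97 reads in parental cells against 573 in CARM1 KO cells, the direction opposite to RBBP4. M6PR shares 1105 bases with PHC1 and had 7493 and 5544 reads, many more than PHC1. PCGF3-AS1 shares 1514 bases with PCGF3 and had 59 and 41 reads. The shared stretches were shorter for KDM2B with RNF34 (439 bases) and KDM2B-DT (232), RBBP7 with TXLNG (179), PCGF1 with LBX2-AS1 (49) and PHF1 with CUTA (12).

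The study used edgeR, which with 1 library per condition needs an assumed spread between replicates. Its calls then rest on that value and are not evidence beyond the folds, and the spread of these cells was not measured. At an assumed coefficient of variation of 0.12 and of 0.2, PCGF5 was called higher and BMI1, CBX2, CBX6 and CBX8 were called lower at an FDR under 0.05 and past 3-fold, where 22.5% and 21.4% of all genes were called in either direction. At 0.4 it called 7.68% of all genes and 0 members.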

How the data were processed

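The authors aligned 75 bp paired-end reads to hg19 with bowtie2 and estimated reads per Ensembl gene with RSEM. They deposited whole-number counts without normalization, and the Ensembl release is not given in the sources used here. Samples were grouped by the genotype in the labels, 1 library each, and held 30741953 (parental) and 32300391 (CARM1 KO) reads.

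Genes were named from GENCODE 44 lifted to GRCh37, which held 55501 of 57736 identifiers, and 2235 were not matched. Fold changes were computed from TMM-scaled counts (edgeR 4.0.16, R 4.3.3) with exact 95% binomial intervals (scipy 1.17.1). A count of 0 was taken as 3 reads for a bound. The steps were tested on simulated data. Calls were folds past 1.5 or 3 with at least 10 reads, since 1 library per group leaves no spread for a quasi-likelihood fit. The exact test with an assumed spread, DESeq2 1.42.0 size factors and other scalings and minimums were alternatives.

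The named genes are all members, their overlapping genes, partners past 3-fold or with the 3 largest rises or falls, CARM1, and up to 4 examples per other list. Members and lists were chosen with earlier results of these data known.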

Additional observations from a re-analysis of the deposited data

How the results depend on the processing

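With library totals, DESeq2 size factors, upper-quartile scaling or TMM over protein-coding genes, with minimums of 1, 50 or 500 reads, and with the whole counting interval required past the fold, 1 member was higher and 3 to 4 were lower past 3-fold, and 6 to 8 were higher and 9 to 11 lower past 1.5-fold. The minimum of 500 reads was chosen after seeing the data. Among PRC2 members, RBBP4 passed 1.5-fold lower with library totals (ratio 0.656) and with TMM over protein-coding genes (0.651). With the latter, PHF1 fell to 1.49-fold higher. Among PRC1 members, RING1 passed 1.5-fold higher with DESeq2 size factors (1.503) and with upper-quartile scaling (1.52). With the minimum of 50 reads, 11 members in place of 10 were lower past 1.5-fold. Under edgeR's exact test with an assumed coefficient of variation of 0.4, 0 members were higher and 0 lower past 3-fold, in place of 1 and 4, which follows from the wider spread assumed. The median log2 fold change of all members was 0.0106 with upper-quartile scaling in place of -0.03, and both lie near 0. All 132 fold changes of single members under the other scalings stayed within their counting intervals, and 0 of 45 medians of role groups changed sign.

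No paired analysis was possible because each condition has a single library, and leaving out a replicate was not possible either. Depth limits CBX7 most, at 61 and 46 reads. Variation between cultures or clones is not measured by these counts.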
